A study of Mus musculus with 9 samples.

Results

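The chemokines and chemokine receptors of mouse skin were measured by 48 probe sets, all those whose annotation gives 1 gene symbol beginning with Ccl, Cxcl, Cx3cl, Xcl, Ccr, Cxcr, Cx3cr, Xcr or Ackr and a digit. They stand for 43 genes and are 48 of the 12488 probe sets of the array. A further 4 probe sets were annotated to several genes at once, some of them with such symbols, and were left out. Whole skin came from 5 Cd1d -/- mice and 4 Cd1d +/+ mice. All 9 were inbred animals on the C57BL/6 background that had received no UVB irradiation. The animals were matched for age and sex, and the labels used here give neither. Each animal was a separate sample on its own Affymetrix MG-U74 array. How the Cd1d deletion was made is not stated in the sources used here. CD1d is the molecule that presents lipid antigens to natural killer T cells. Skin after irradiation was not analysed here.

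Chemokines are small secreted proteins that guide white blood cells along a concentration gradient. They are named by the spacing of their first cysteines, as CC, CXC, C and CX3C ligands, and they act on receptors with a G protein as partner. A few atypical receptors bind chemokines without such signalling and take them up. In skin, keratinocytes, fibroblasts, endothelium and resident macrophages make chemokines that keep immune cells in place at rest and call in monocytes, neutrophils, eosinophils and T cells in inflammation.

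The signals are MAS5 signals in arbitrary units. A probe set was kept for testing where its signal reached the 40th percentile of its array in at least 4 of the 9 arrays, which is a signal of 43.4 to 53.3. This left 7658 of 12422 probe sets without controls (61.6%), and 23 of the 48 chemokine and receptor probe sets (47.9%), which cover 21 genes. The probe set of Cd1d1, the targeted gene, read 47.6 to 79.6 in knockout and 91 to 130 in wild-type skin, with no overlap (log2 difference -0.86, limma adjusted p = 0.242). Signals of different probe sets depend on their probes, so levels are compared between mice and not between genes. In whole skin, fewer cells of a type and less RNA per cell cannot be told apart.

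Most chemokine and receptor transcripts had somewhat lower values in knockout skin, and none passed the test. Of the 23 kept probe sets 19 had a log2 difference below 0 (knockout minus wild type) and 4 above. The median was -0.24, against 0.01 over all kept probe sets. Below 0 lay 48.8% of all kept probe sets. Among the members below 0, Ccr1, Xcl1 and Ackr1 each reached the filter signal in 1 knockout mouse and were kept mainly through wild-type mice. With limma at adjusted p under 0.05, 0 of the 23 were called, against 0.0522% of all kept probe sets and 0.0261% for lower values. The smallest adjusted p among them was 0.355. At an unadjusted p under 0.05 limma called 4 of the 23, all of them lower in the knockout (17.4%). The background of the same rule was 9.4% in either direction, 3.96% for lower and 5.45% for higher values. A fold of at least 1.5 lower in the knockout was reached by 4 of the 23 (Ccl9, Ccl11, Cxcl13 and Ackr1), against 2.27%. With 64 added to each signal Ccl9 still reached it (log2 difference -0.93). Cxcl13 (-0.52), Ccl11 (-0.43) and Ackr1 (-0.36) then did not, and the share over all probe sets at that setting was not counted. The groups did not overlap for 0 of the 23, against 3.21% of all kept probe sets and 1.38% for lower values. The 4 with an unadjusted p under 0.05 were Ccl9, Ccl11, Ccr2 and Ccl6.

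**Figure D1:**
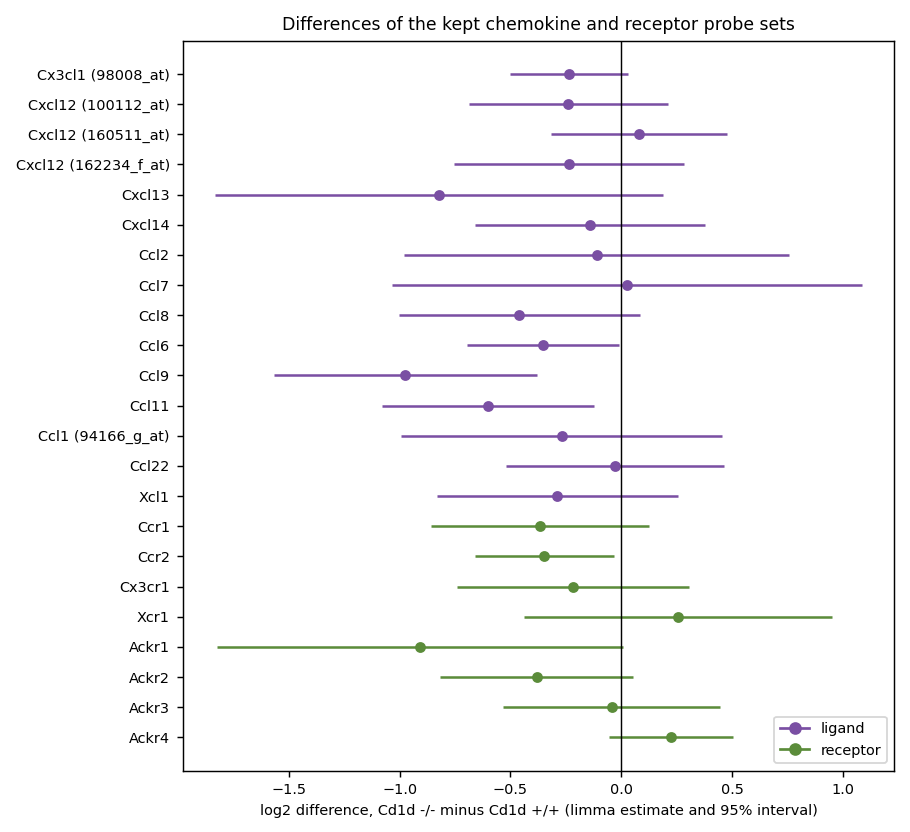
Log2 difference of each of the 23 kept probe sets, Cd1d -/- minus Cd1d +/+ on the x axis, as the limma estimate (point) with its 95% interval (line), for ligands and receptors by role. Of the points 19 lie below 0, and the intervals of Ccl9, Ccl11, Ccr2 and Ccl6 do not reach 0.

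The CC ligands with the smallest p, Ccl9, Ccl11 and Ccl6, lie on chromosome 11, Ccl9 and Ccl6 side by side and Ccl11 in another group of neighbouring genes. In the gene order of assembly GRCm38.p6, Ccl2, Ccl7, Ccl11, Ccl12, Ccl8 and Ccl1 follow each other with 0 other protein-coding genes between them. After 25 such genes come Ccl5, Ccl9, Ccl6, Ccl3 and Ccl4, again without interruption. The 150 bases before the annotated start of 4 of these genes (RefSeq, GRCm38.p6) are shown. Ccl9 and Ccl6 are the neighbouring pair with lower values in the knockout, and Ccl8 and Ccl12 belong to the group whose signals are compared from mouse to mouse. The entries for Ccl2, Ccl7 and Ccl11 were not used here. Capitals mark matches, on either strand, to TATAAA (the TATA box), GGGNNNNNCC (an NF-kappaB-like motif), TTCNNNGAA (a STAT-like motif), TGANTCA (an AP-1-like motif) and GAGGAA (an Ets-like motif). Ccl9 is at chr11:83578637-83578786 on the minus strand, Ccl6 at chr11:83593088-83593237 on the minus strand, Ccl8 at chr11:82115035-82115184 on the plus strand and Ccl12 at chr11:82101695-82101844 on the plus strand.
Ccl9: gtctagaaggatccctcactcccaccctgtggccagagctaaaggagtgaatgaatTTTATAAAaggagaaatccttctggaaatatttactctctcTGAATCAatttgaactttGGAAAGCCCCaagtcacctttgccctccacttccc
Ccl6: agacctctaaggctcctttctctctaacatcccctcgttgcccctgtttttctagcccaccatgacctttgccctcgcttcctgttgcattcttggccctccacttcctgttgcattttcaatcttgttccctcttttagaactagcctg
Ccl8: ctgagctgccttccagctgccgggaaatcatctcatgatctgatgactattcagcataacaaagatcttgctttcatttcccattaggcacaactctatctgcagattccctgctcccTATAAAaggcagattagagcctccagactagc
Ccl12: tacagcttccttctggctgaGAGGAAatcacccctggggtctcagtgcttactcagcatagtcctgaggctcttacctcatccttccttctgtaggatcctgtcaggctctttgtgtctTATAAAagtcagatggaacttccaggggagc

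The windows differ in these letters although the genes are neighbours. The Ccl9 window holds 2 overlapping TATAAA matches, 1 GGGNNNNNCC match and 1 TGANTCA match. The Ccl6 window, from the gene beside it, holds none of the 5 motifs. Ccl8 and Ccl12 each hold 1 TATAAA match, at -32 and -31, and Ccl12 holds 1 GAGGAA match. Over all 32851 promoter windows of this length, TATAAA occurred in 7.57%, GGGNNNNNCC in 35.4%, TTCNNNGAA in 4.09%, TGANTCA in 4.24% and GAGGAA in 14.5%. Of the 35 member genes with a window, TATAAA occurred in 7 (20.0%), GGGNNNNNCC in 16 (45.7%), TTCNNNGAA in 2 (5.71%), TGANTCA in 4 (11.4%) and GAGGAA in 6 (17.1%). The shares over all promoters count windows and those of the members count genes, so they are not directly comparable. A match describes the letters of the window and does not show that a factor binds there.

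Among the CC ligands known as macrophage inflammatory proteins, Ccl9 and Ccl6 had lower values in knockout skin. Both bind the receptor Ccr1 in the mouse. The Ccl9 signal was 826.1, 614.4, 848.4, 1165 and 1842.3 in knockout mice 1 to 5, against 1796.1, 2188.1, 2350 and 1516.1 in wild-type mice 1 to 4. The first 4 knockout mice lay below every wild-type mouse, and knockout 5 lay within the span of the wild-type mice. The means were 1059 ± 480 in knockout mice (SD, n = 5) and 1963 ± 378 in wild-type mice (SD, n = 4), a log2 difference of -0.97 (SE 0.27, 95% interval -1.57 to -0.38). The limma adjusted p was 0.355, and the exact two-sided permutation test over all arrangements of the 9 arrays gave p = 0.0397 for this probe set alone.

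Ccl6 showed the same order with a smaller gap. Its signal was 158.7, 151.8, 156.4, 185.8 and 210.6 in knockout mice 1 to 5, against 222.7, 171.2, 252.9 and 237.1 in wild-type mice 1 to 4. Knockout 1, 2 and 3 lay below every wild-type mouse, and knockout 4 and 5 lay above wild type 2. The means were 173 ± 25.0 in knockout mice and 221 ± 35.4 in wild-type mice, a log2 difference of -0.35 (SE 0.16). The limma adjusted p was 0.519, and exact permutation (two-sided) gave p = 0.0635. The others of this group, Ccl3, Ccl4 and Ccl5, were too dim to be kept.

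Ccl11, or eotaxin, draws eosinophils through Ccr3. Its signal was 126.6, 107.1, 209.5, 122.1 and 132.7 in knockout mice 1 to 5, against 161, 287.5, 182 and 212.4 in wild-type mice 1 to 4. Of the knockout mice 4 lay below every wild-type mouse, and knockout 3 lay among them. The means were 140 ± 40.2 in knockout mice and 211 ± 55.4 in wild-type mice, a log2 difference of -0.60 (SE 0.22, 95% interval -1.08 to -0.12). The limma adjusted p was 0.443, and exact permutation (two-sided) gave p = 0.0476. Ccr3, its receptor, was not kept, at 12.9 ± 10.5 in knockout mice and 23.3 ± 3.67 in wild-type mice.

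**Figure D2:**
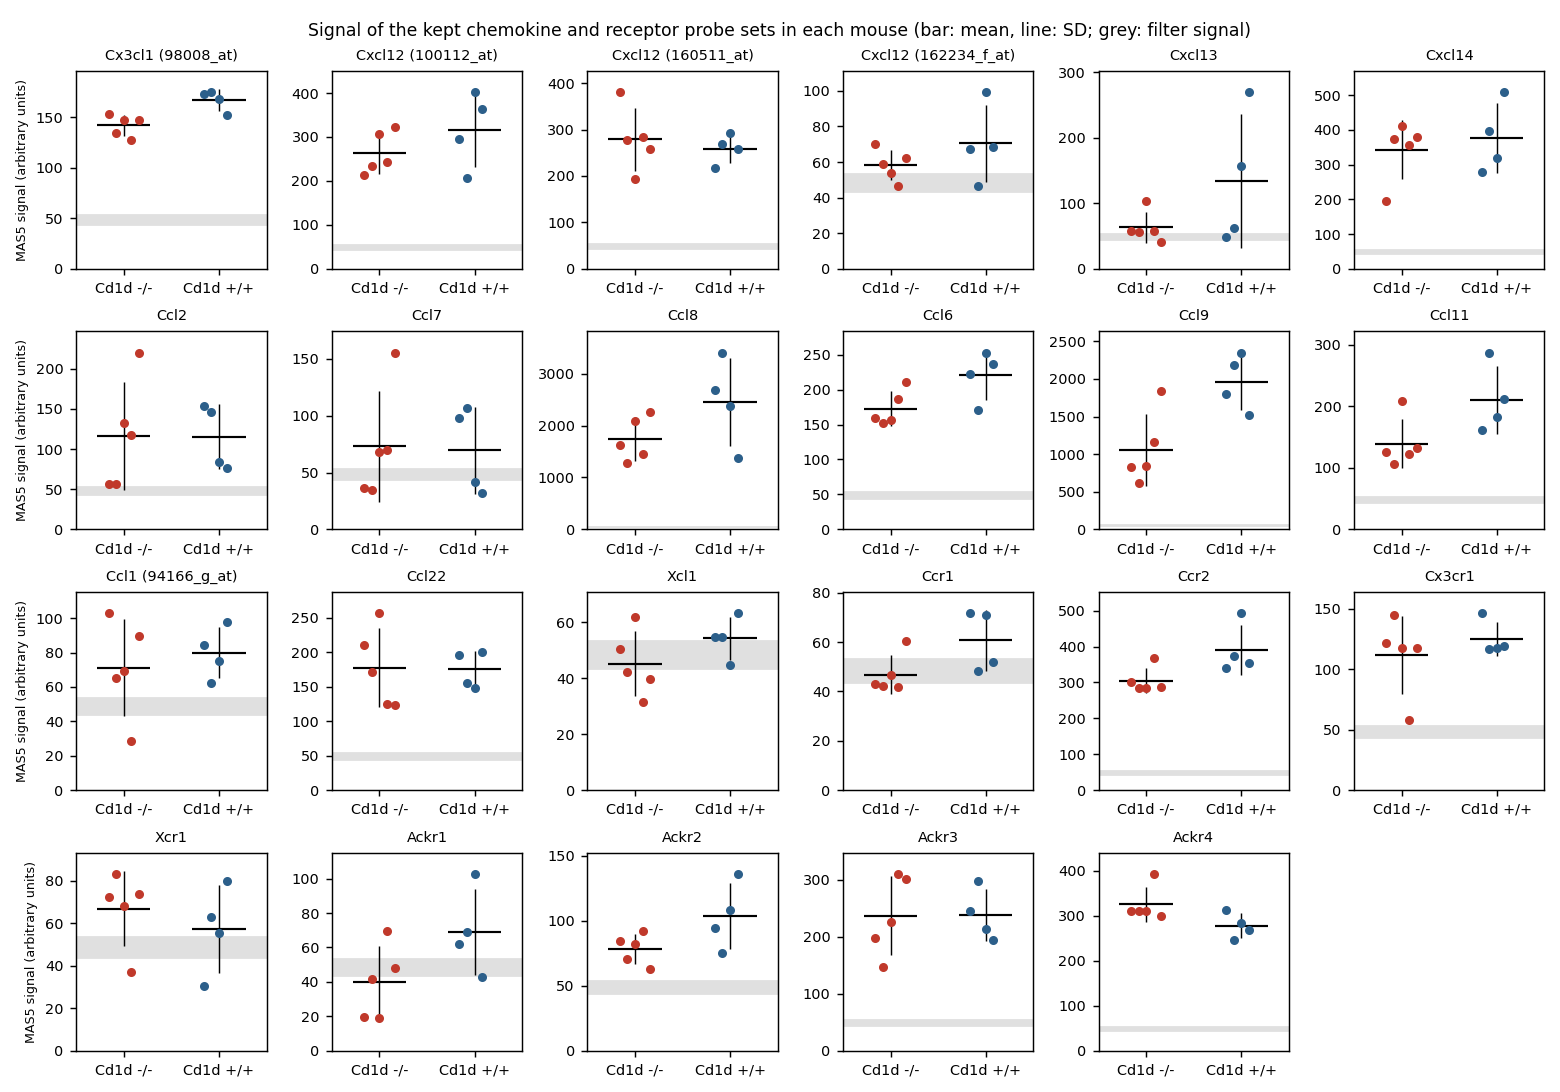
MAS5 signal (y axis, arbitrary units, from 0) of each of the 23 kept probe sets in each mouse, Cd1d -/- on the left and Cd1d +/+ on the right of each panel. Points are mice, the horizontal bar is the mean, the vertical line the SD, and the grey band is the filter signal of 43.4 to 53.3. In the panel of Ccl9, 4 of the 5 knockout mice lie below all wild-type mice, while those of Ccl2, Ccl7 and Ackr3 overlap throughout.

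None of the ligands that attract monocytes passed the test. Ccl8 acts on Ccr8 in the mouse, and its signal was 1623.8, 1271.5, 2092.6, 1446.6 and 2258.7 in knockout mice 1 to 5. In wild-type mice 1 to 4 it was 2675, 3405.1, 2374.7 and 1372.8. Of the wild-type mice 3 lay above every knockout mouse, but wild type 4 was next to the lowest of all 9. The means were 1739 ± 422 in knockout mice and 2457 ± 842 in wild-type mice. The log2 difference was -0.46 (SE 0.25, limma adjusted p = 0.595, exact two-sided permutation p = 0.183). It was -0.71 without wild type 4 and -0.28 without wild type 2. Ccl2, Ccl7 and, in the mouse, Ccl12 are ligands of Ccr2. Ccl2 read 56.5, 56.5, 132.5, 116.9 and 220 in knockout mice 1 to 5 and 154, 145.6, 84.1 and 77 in wild-type mice 1 to 4. Its knockout mice held both the highest and the lowest values, and the log2 difference was -0.11 (SE 0.40, limma adjusted p = 0.955). Ccl7 read 36.3, 34.7, 68.4, 69.8 and 155.6 in knockout mice 1 to 5 and 97.9, 106.8, 41.6 and 32.1 in wild-type mice 1 to 4 (log2 difference 0.03, SE 0.48, limma adjusted p = 0.992). The deposited values have 7 decimals in 5 arrays and 9 in the other 4, and with this number as a block the log2 differences were -0.50 for Ccl2, -0.39 for Ccl7 and -0.58 for Ccl8. Within the 7-decimal arrays they were -0.80, -0.56 and -0.63 for the same genes, and within the 9-decimal arrays -0.03, -0.11 and -0.50. The sign of Ccl7 thus depends on this split. Ccl12 was not kept, at 9.8, 7.2, 25.8, 57.2 and 131.7 in knockout mice 1 to 5 and 19.1, 31, 44.2 and 9.2 in wild-type mice 1 to 4.

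Of these neighbouring genes, Ccl2 and Ccl7 varied together from mouse to mouse. Of the 6 pairs among 4 genes, 3 had an adjusted Pearson p under 0.05 and 1 an adjusted Spearman p under 0.05. Across the 9 arrays the log2 signals of Ccl2 and Ccl7 had Pearson's r = 0.96 (exact permutation p = 0.000132) and Spearman's rho = 0.91 (exact permutation p = 0.00143). The pairs were chosen after their values were seen, 6 of them among 4 ligands, and over these the adjusted p values were 0.000794 and 0.00860. This adjustment does not cover the choice of the 4 genes. Without knockout 1 and 2, the mice farthest from the Ccl2 median, r was 0.98. After subtracting the mean of each genotype r was 0.96. Within the 7-decimal and the 9-decimal arrays r was 0.90 and 0.98. Ccl2 with Ccl12 gave r = 0.78 (exact permutation p = 0.0136, adjusted 0.0409) and rho = 0.67 (p = 0.0550, adjusted 0.0660), and r = 0.60 without knockout 1 and 2. Ccl7 with Ccl12 gave r = 0.75 (exact permutation p = 0.0215, adjusted 0.0431) and rho = 0.77 (p = 0.0214, adjusted 0.0571), and r = 0.50 without knockout 5 and wild type 4. Both relations with Ccl12 therefore rest in part on those mice. Ccl12 was not kept and reached the filter signal in 2 of the 9 arrays, and Ccl7 reached it in 5. Their correlations thus rest in part on signals below the filter. The pairs with Ccl8 had r of 0.66 for Ccl2, 0.69 for Ccl7 and 0.47 for Ccl12, with adjusted p values, from exact permutation, of 0.0669, 0.0669 and 0.203. Their rho values were 0.71, 0.73 and 0.50 (adjusted p 0.0571, 0.0571 and 0.178), and r without the 2 farthest mice was 0.49, 0.70 and 0.37. Within the 7-decimal and the 9-decimal arrays r was 0.72 and 0.56 for Ccl2 with Ccl12, 0.61 and 0.61 for Ccl7 with Ccl12, 0.88 and 0.60 for Ccl2 with Ccl8, 0.90 and 0.53 for Ccl7 with Ccl8, and 0.88 and -0.32 for Ccl8 with Ccl12. The last relation thus did not hold in both. Probe sequences were not used here, so shared probe sequence between these related genes was not tested.

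**Figure D3:**
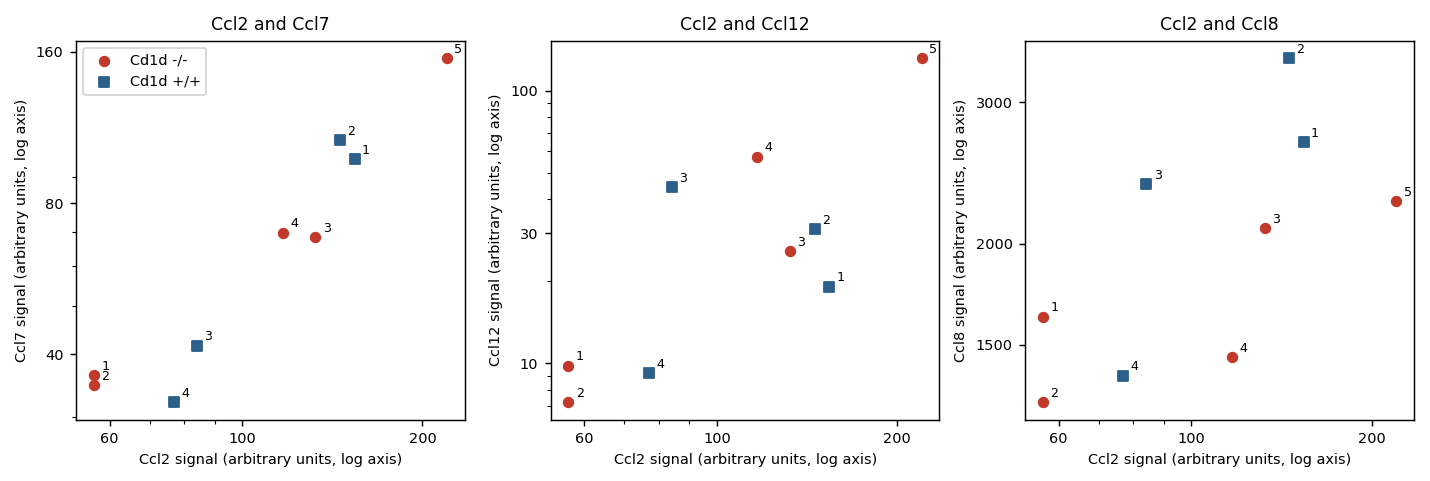
Signals of Ccl7, Ccl12 and Ccl8 (y axes, arbitrary units, log axes) against that of Ccl2 (x axes, arbitrary units, log axes) in the 9 mice, with the mouse number beside each point. Knockout 5 is highest and knockout 1 and 2 are lowest for Ccl2, and the points of Ccl2 and Ccl7 follow a line (r = 0.96 over the 9 mice).

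The ligands that skin makes at rest overlapped between the genotypes, and none passed the test. Cxcl14, a chemokine of the epidermis, read 194.4, 374.5, 411.4, 356.9 and 378.1 in knockout mice 1 to 5 and 280, 395.6, 318.4 and 509.4 in wild-type mice 1 to 4. Apart from knockout 1 the knockout mice lay inside the wild-type range, and the log2 difference was -0.14 (SE 0.24, 95% interval -0.66 to 0.38, limma adjusted p = 0.884). Cxcl12, which holds Cxcr4-bearing cells in tissue, has 3 kept probe sets, and they disagree in sign. The first read 213.2, 233.4, 305.9, 243.5 and 323.5 in knockout mice 1 to 5 and 295.6, 206.1, 402.6 and 363.3 in wild-type mice 1 to 4 (log2 difference -0.24, SE 0.20). The second read 381.1, 277.9, 193.6, 283.3 and 258.3 in knockout and 216.9, 268.2, 293.2 and 257.8 in wild-type mice (0.08, SE 0.18). The third was dimmer, at 69.9, 58.6, 54.1, 46.7 and 62.2 in knockout and 67.3, 46.7, 99.4 and 68.4 in wild-type mice (-0.23, SE 0.24). Limma adjusted p values of the 3 were 0.764, 0.920 and 0.792, so no direction can be given for Cxcl12.

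Cx3cl1, or fractalkine, is a membrane-bound ligand that can be shed. It varied little between mice of a genotype. Its signal was 153.2, 134.1, 147.6, 127.6 and 147.6 in knockout mice 1 to 5, against 173.3, 175.3, 168.1 and 152 in wild-type mice 1 to 4. The groups missed separation by a single pair, knockout 1 lying just above wild type 4. The means were 142 ± 10.7 in knockout mice and 167 ± 10.6 in wild-type mice, a log2 difference of -0.24 (SE 0.12). Limma gave an unadjusted p of 0.0756 and an adjusted p of 0.576, and exact two-sided permutation gave p = 0.0238. Permutation p values for the difference of a single probe set, here and elsewhere, are not adjusted for the number of probe sets. A second probe set of Cx3cl1 was not kept, at 21.9 ± 18.4 in knockout and 28.7 ± 22.5 in wild-type mice. Cxcl13, which draws B cells, spread widely, with 57.4, 55.8, 104.1, 58 and 40.2 in knockout and 48.3, 61.9, 156.5 and 269.9 in wild-type mice. Wild type 3 and 4 stood above all knockout mice and wild type 1 and 2 among them (log2 difference -0.82, SE 0.46, limma adjusted p = 0.612). The log2 difference was -1.28 within the 7-decimal and 0.37 within the 9-decimal arrays, and -0.52 at pseudocount 64, so its direction depends on the arrays used.

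Of the lymphoid and skin-homing ligands, Ccl22, which acts on Ccr4 of skin-homing T cells, read 123 to 256.3 in knockout and 148 to 200.5 in wild-type mice (log2 difference -0.03, SE 0.23). Ccl1, a Ccr8 ligand, read 102.9, 65.4, 69.4, 28.8 and 89.6 in knockout mice 1 to 5 and 84.1, 62.4, 75.2 and 97.9 in wild-type mice 1 to 4 by its kept probe set (-0.27, SE 0.33). Knockout 4 alone lay below the wild-type range. The second probe set of Ccl1 was not kept and had the opposite sign, at 21.5 ± 9.52 in knockout and 14.8 ± 7.27 in wild-type mice. Xcl1, the ligand of Xcr1, read 31.6 to 62.1 in knockout and 44.6 to 63.3 in wild-type mice (-0.29, SE 0.25). These values are near the filter signal, which 1 knockout and 3 wild-type mice reached. Limma adjusted p values of these 3 ligands were between 0.764 and 0.985.

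Among the receptors, Ccr2, which monocytes use to leave the blood and enter tissue, had the smallest p. Its signal was 301.2, 283.7, 285.6, 367.5 and 287.8 in knockout mice 1 to 5, against 339.3, 374.5, 493.2 and 354.5 in wild-type mice 1 to 4. Of the knockout mice 4 lay below every wild-type mouse, and knockout 4 lay within the span of the wild-type mice. The means were 305 ± 35.5 in knockout mice and 390 ± 70.0 in wild-type mice, a log2 difference of -0.35 (SE 0.14, 95% interval -0.66 to -0.03). The limma adjusted p was 0.500, and exact permutation (two-sided) gave p = 0.0317. Ccr1, the receptor of Ccl9 and Ccl6 in the mouse, read 42.9, 42.3, 46.5, 41.8 and 60.3 in knockout mice 1 to 5 and 71.7, 48.2, 71 and 51.8 in wild-type mice 1 to 4. Here 4 knockout mice lay below every wild-type mouse, but these signals are at the filter level. The log2 difference was -0.37 (SE 0.22, limma adjusted p = 0.648, exact two-sided permutation p = 0.103). The filter signal was reached by 1 knockout and 4 wild-type mice. Ccr1 was thus kept mainly through the wild-type mice, so this order is not independent of the filter.

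Cx3cr1, the fractalkine receptor of resident macrophages and monocytes, read 121.8, 145.1, 117.7, 57.8 and 117.5 in knockout mice 1 to 5 and 146.5, 116.5, 118 and 119.5 in wild-type mice 1 to 4. Apart from knockout 4, which read less than any other mouse, both genotypes covered the same range (log2 difference -0.22, SE 0.24, limma adjusted p = 0.806). Xcr1, a receptor of cross-presenting dendritic cells, read 72.2, 83.2, 67.9, 36.9 and 73.7 in knockout and 30.4, 62.7, 55.5 and 80 in wild-type mice (0.26, SE 0.32, limma adjusted p = 0.831).

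All 4 atypical receptors were kept. Ackr1, found on red cells and on the endothelium of venules, binds many chemokines. Its signal was 19.7, 41.9, 19.1, 69.7 and 48.1 in knockout mice 1 to 5, against 62, 68.8, 102.8 and 42.6 in wild-type mice 1 to 4. Knockout 1, 2 and 3 lay below every wild-type mouse, and 1 knockout and 3 wild-type mice reached the filter signal. The log2 difference was -0.91 (SE 0.42, limma adjusted p = 0.535, exact two-sided permutation p = 0.143), and -0.36 at pseudocount 64. Ackr2 takes up inflammatory CC chemokines, and read 84.3, 70.6, 82.1, 92.3 and 62.9 in knockout and 94.8, 75.5, 108 and 136.1 in wild-type mice. Knockout 1, 3 and 4 lay above wild type 2 and below the other wild-type mice. The log2 difference was -0.38 (SE 0.20, limma adjusted p = 0.576, exact two-sided permutation p = 0.0873).

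Ackr3, which removes Cxcl12, overlapped throughout, with 198, 146.4, 226.4, 310.1 and 300.4 in knockout and 245.1, 297.7, 214 and 193.9 in wild-type mice (-0.04, SE 0.22, limma adjusted p = 0.971). Ackr4 takes up Ccl19, Ccl21 and Ccl25 and had higher values in the knockout. Its signal was 311.5, 311.5, 311.1, 393.4 and 298.6 in knockout mice 1 to 5, against 312.5, 247.2, 283.8 and 268.4 in wild-type mice 1 to 4. All 5 knockout mice lay above 3 of the wild-type mice, and wild type 1 lay among them. The log2 difference was 0.22 (SE 0.13, limma adjusted p = 0.617, exact two-sided permutation p = 0.0714).

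The other 25 probe sets were too dim to be kept, and 18 of the 25 reached the filter signal in no array. Without detection calls it is unknown which of them were above background. All 4 probe sets of neutrophil attractants (Cxcl1, Cxcl2 and Cxcl5) were among them. The first probe set of Cxcl1 read 22.7, 21.7, 32, 19.3 and 5.1 in knockout mice 1 to 5, against 43.8, 46.3, 52.6 and 34.5 in wild-type mice 1 to 4. It was the single member, kept or not, whose groups did not overlap, against 2.87% of all probe sets without the filter and 1.22% for lower values. The second probe set of Cxcl1 did not share this, at 12.2 ± 7.80 in knockout mice and 11.6 ± 3.77 in wild-type mice. Ccl5, a T cell attractant, read 6.2, 8.2, 19.6, 13.5 and 7 in knockout and 53.2, 13.9, 29.3 and 33.7 in wild-type mice. Cxcl5 read 4.4 to 17.6 in knockout and 15.5 to 33.1 in wild-type mice, and Cxcl2 read 1.4 to 18.6 in knockout and 4.9 to 39.5 in wild-type mice.

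Without the filter 35 of the 48 members had log2 differences below 0, with a median of -0.25, against 49.0% of all 12422 probe sets. At an unadjusted p under 0.05 limma then called 10 of 48, all lower in the knockout, against a background of 3.57% for lower values and 8.51% in either direction (4.93% for higher values). A fold of at least 1.5 lower was reached by 12 of 48, against 6.69%. After adjustment it called 0 of 48, with a smallest adjusted p of 0.430 (background 0.0483%, and 0.0242% for lower values). Signals this low have a large relative error: with 64 added to each signal, the log2 difference was -0.37 for the first Cxcl1 probe set, -0.35 for Ccl5 and -0.25 for Cxcl5. The interferon-induced Cxcl9 read 4.2 to 33.1 in knockout and 20.9 to 42.2 in wild-type mice, and Cxcl10 read 3.1 to 20 in knockout and 3.2 to 6.6 in wild-type mice. The other dim ligand probe sets were those of Ccl3, Ccl4, Ccl17 and Ccl25 and the second of Ccl1, with means over the 9 mice of 6.63 to 27.6. The remaining dim receptors were Ccr3, Ccr4, Ccr6, Ccr7, Ccr8, Ccr9, Ccr1l1, Cxcr2, Cxcr3, Cxcr4 and Cxcr5, with means over the 9 mice of 10.1 to 46.8.

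**Figure D4:**
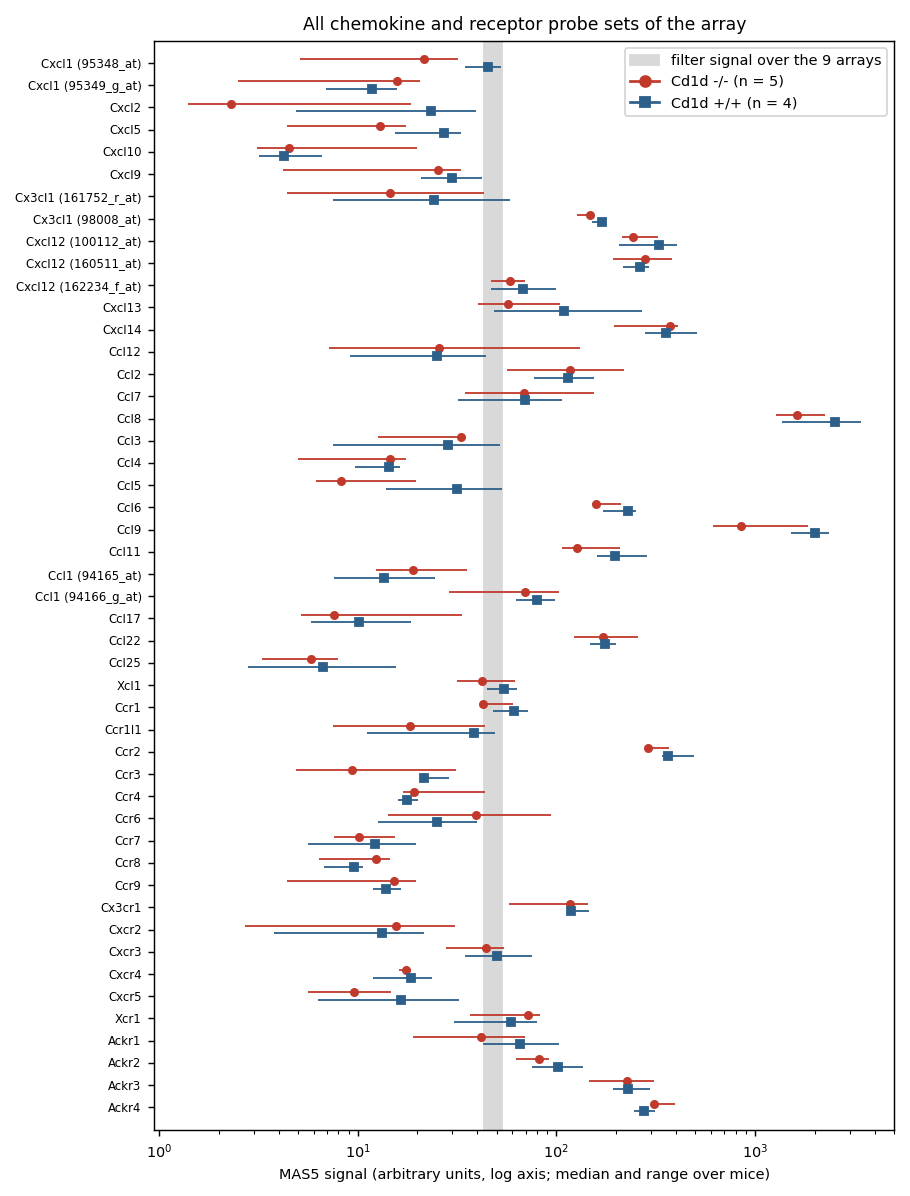
Median (point) and range (line) of the MAS5 signal (x axis, arbitrary units, log axis) of all 48 probe sets, with Cd1d -/- above Cd1d +/+ in each row. The grey band is the filter signal of 43.4 to 53.3. The neutrophil attractants, the interferon-induced ligands and 11 of the 19 receptor probe sets were not kept.

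None of the other genes of the pathway passed the test. Of 31 kept genes of chemokine receptor signalling (G protein subunits, arrestins, kinases and cytoskeletal regulators) 19 had lower and 12 higher values, with a median log2 difference of -0.06. Limma called 0 of them, and 2 at an unadjusted p under 0.05, against 9.4% of all kept probe sets. These were Was, an actin regulator of blood cells, at 88.6 ± 29.6 in knockout mice and 132 ± 8.45 in wild-type mice, and Prkcd, a protein kinase C. Of 13 genes of leukocyte adhesion and entry 9 were lower, with a median of -0.07 and 0 calls, and 5 had an unadjusted limma p under 0.05 (3 lower and 2 higher). Among these, Selplg, the selectin ligand of white blood cells, read 433 ± 71.8 in knockout mice and 628 ± 58.8 in wild-type mice (log2 difference -0.55, limma adjusted p = 0.311), and Cd44, a hyaluronan receptor, 159 ± 19.9 in knockout and 113 ± 22.7 in wild-type mice (0.51, adjusted p = 0.405). Of 10 kept genes that induce chemokines 8 were lower, with a median of -0.07 and 0 calls, and the NF-kappaB subunit Rela had the smallest p (1158 ± 199 in knockout mice and 1559 ± 59.2 in wild-type mice, limma adjusted p = 0.363). Among related genes outside the symbol rule 3 were kept. Of these Rarres2, the precursor of the attractant chemerin, read 933 ± 111 in knockout mice and 1309 ± 199 in wild-type mice (log2 difference -0.48, limma adjusted p = 0.355), Dpp4, a protease that trims chemokines, read 97.7 ± 13.6 in knockout and 111 ± 16.8 in wild-type mice, and Ccrl2, a chemerin-binding receptor, 57.9 ± 9.52 in knockout and 62.4 ± 17.5 in wild-type mice.

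Markers of cells that make or bear these molecules were counted in the same way, and 2 red-cell genes passed the test. Over all kept probe sets 48.8% were lower, 3.96% were lower and 5.45% higher at an unadjusted p under 0.05. All 20 kept markers of macrophages and dendritic cells had lower values, with a median of -0.29 and 0 called by limma, and 8 had an unadjusted p under 0.05. Set against its 9-array average, the median of the list was -0.20, -0.30, -0.02, 0.02 and -0.10 in knockout mice 1 to 5 and 0.18, 0.22, 0.23 and 0.07 in wild-type mice 1 to 4. Their summed signal was 13406 to 16817 in knockout and 16484 to 19336 in wild-type skin. With this median as a covariate the log2 difference of Ccl9 was -0.16 (SE 0.41), that of Ccr2 -0.07 (SE 0.25), that of Ccl11 -0.21 (SE 0.39) and that of Ccl6 -0.24 (SE 0.29). Some other kept members lay farther from 0 with this covariate than without it. Cx3cr1 was at -0.93 (SE 0.37) and Ccl1 at -1.15 (SE 0.53). Ccl2 was at 1.13 (SE 0.59), Ccl7 at 1.35 (SE 0.77) and Ackr3 at 0.78 (SE 0.29). The list medians of the genotypes do not overlap, and the covariate raised the SE of Ccl9, Ccr2, Ccl11 and Ccl6. Marker content and genotype cannot be told apart here.

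All 11 kept endothelial markers had lower values too, against 48.8% of all kept probe sets (median -0.19, 0 called by limma). An unadjusted limma p under 0.05 was reached by 2 of the 11, against 3.96% for lower values over all kept probe sets. Their summed signal was 1445 to 2227 in knockout and 1812 to 2154 in wild-type skin. Of the markers of red cells, which also bear Ackr1, all 4 were lower and 2 of 4 were called by limma, and their summed signal was 1356 to 2043 in knockout and 3362 to 5093 in wild-type skin. The called genes were the globins Hba-a1 (1263 ± 237 in knockout and 3292 ± 612 in wild-type mice, limma adjusted p = 0.00531) and Hbb-b2 (224 ± 41.7 in knockout and 592 ± 118 in wild-type mice, limma adjusted p = 0.00896). Their part in the lower Ackr1 values was not tested. Hair follicle genes ran the other way, with all 16 higher and a median of 1.77, but unevenly: the list median was 1.32, 2.91, -0.75, -1.92 and 2.54 in knockout mice 1 to 5 and -0.92, -1.52, 0.05 and -0.78 in wild-type mice 1 to 4. Their summed signal was 2176 to 39271 in knockout and 1860 to 4236 in wild-type skin. Limma called 0 of the 16, and 7 at an unadjusted p under 0.05, against 5.45% for higher values over all kept probe sets. With that median as a covariate Ccl9 had a log2 difference of -0.96 (SE 0.32), Ccl6 -0.39 (SE 0.18), Ccr2 -0.29 (SE 0.17) and Ccl11 -0.44 (SE 0.24). The other 8 marker lists (T and NK cells, B and plasma cells, neutrophils, mast cells, keratinocytes, fibroblasts, adipocytes and skeletal muscle) had medians between -0.20 and 0.16. Limma called 0 of their 63 genes, with 13 at an unadjusted p under 0.05, against 9.4% of all kept probe sets. Skeletal muscle had the lowest of these medians (-0.20, against -0.19 for the endothelial list). Of its 10 kept markers 9 were lower and 1 higher, and 2 of the lower ones had an unadjusted limma p under 0.05. Lower values were thus not limited to the macrophage, endothelial and red-cell lists.

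**Figure D5:**
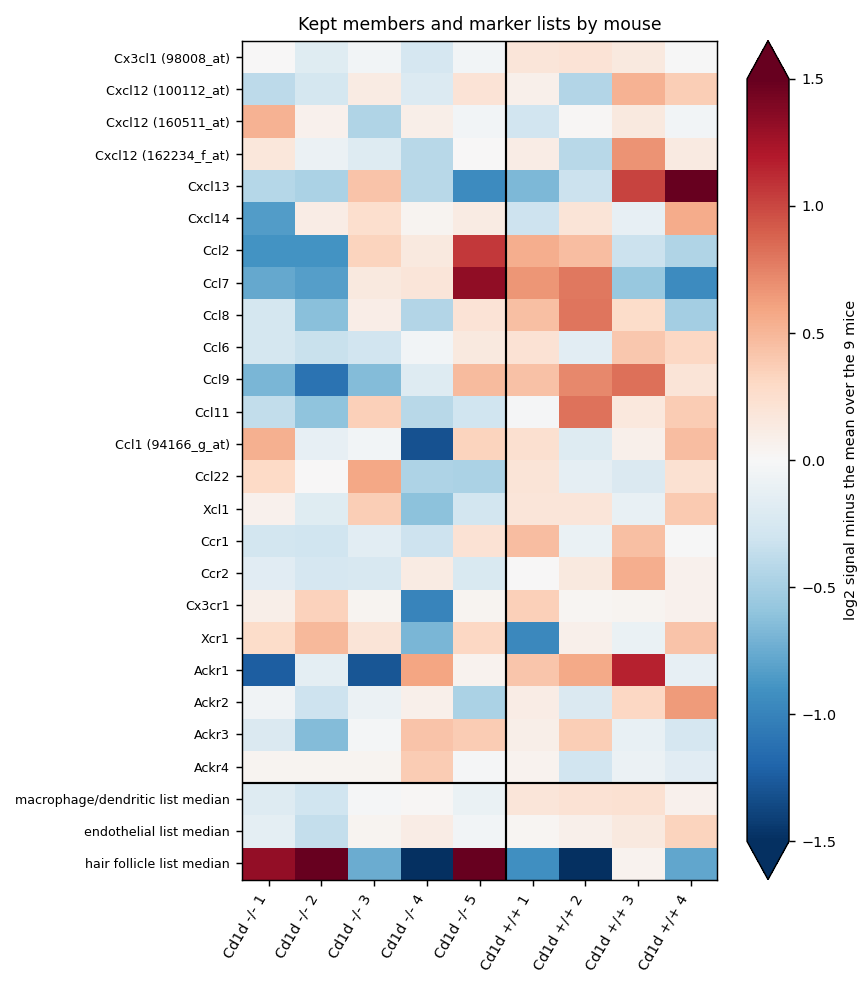
Log2 signal of the 23 kept probe sets in each mouse minus the mean over the 9 mice (colour, red above and blue below the mean, saturated beyond 1.5), with the medians of 3 marker lists in the lowest rows. Knockout mice stand left of the vertical line. Ccl9 is low in knockout 1, 2 and 3, Ccl2 and Ccl7 are low in knockout 1 and 2 and high in knockout 5, and the macrophage and dendritic cell median is lower in every knockout mouse than in any wild-type mouse.

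The arrays whose values have 7 decimals hold knockout 1 and 2 and wild type 2, 3 and 4, and those with 9 decimals hold the rest. Within the first the log2 difference was -1.48 for Ccl9, -0.94 for Ccl11, -0.46 for Ccr2 and -0.49 for Ccl6. Within the second, with its single wild-type mouse, it was -0.56, -0.10, -0.12 and -0.28 for the same genes. With the number of decimals as a block the 4 values were -1.12, -0.62, -0.33 and -0.41. The sign of the estimates was thus the same, and the sizes within the sets differed by more than 1.5 times for all 4 genes. With 1 wild-type mouse the second set cannot show a direction by itself. In it knockout 5 for Ccl9, knockout 3 for Ccl11 and knockout 4 for Ccr2 lay above wild type 1. What the decimals mark is not stated in the sources used here.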

How the data were processed

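Signals of Microarray Suite 5.0 (MAS5), per the labels, were made by the authors from whole-skin RNA of 9 mice, each on its own array. The scale of the deposited values is the natural log (ln), which follows from the numbers: the exponential of 100% of values is a multiple of 0.1 (within 0.002), and the mean signal trimmed by 2% at each end is 200.11 to 200.133 in every array. The values were turned to log2 and not normalised again. No intensity files or detection calls were used, and an array has no depth, so the number of mice limits the precision.

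Differences were fitted with limma 3.58.1 in R 4.3.3 (lmFit, eBayes with trend, two-sided, Benjamini-Hochberg over all 7658 kept probe sets, threshold 0.05). The fit was tested on simulated data with 200 changed probe sets in each of 20 runs. It recovered 12.7% of changes of 1.5 times, 68.75% of 2 times and 96.25% of 4 times. Of its calls 4.87%, 5.17% and 4.70% were false. Most changes of 1.5 times were thus missed there, so 0 called members does not show that none changed. Gene symbols came from the platform annotation, and all 48 members matched the GRCm38.p6 gene table by Entrez identifier. Where a listed gene had several kept probe sets, the brightest on average stood for it. Values in every array are given for the 8 kept members with the smallest p, the 6 with the highest signal, all kept receptors and genes with several probe sets, and for a few others chosen after their values were seen. Of the other lists, called genes and a few of the genes with the smallest p are named. Members, lists and tests were chosen with earlier results of these data known. Alternatives were the normalisation, pseudocount, filter, variance model, array weights, replicate number, number of decimals, marker covariates and each array left out.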

Additional observations from a re-analysis of the deposited data

Results flagged for a closer look

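The signals of the 18 probe sets with full statistics were searched for a mouse standing far from the others of its genotype (Dixon's test at 95%), which chance gives in about 1 of 20 groups, and 36 groups were searched. In knockout skin, Cxcl14 read 194.4 in knockout 1 and 356.9 to 411.4 in the other 4 mice. Ccl11 read 209.5 in knockout 3 and 107.1 to 132.7 in the others. Ccr1 read 60.3 in knockout 5 and 41.8 to 46.5 in the others. Knockout 4 stood apart for Ccr2, at 367.5 against 283.7 to 301.2, and for Ackr4, at 393.4 against 298.6 to 311.5. In wild-type skin, Cx3cr1 read 146.5 in wild type 1 and 116.5 to 119.5 in the other 3 mice.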

How the results depend on the processing

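The count of 0 called chemokine and receptor probe sets held in all 24 alternatives and with 1 probe set a gene. Their median of -0.24 stayed within the spread between arrays (SD 0.12) except within the 7-decimal arrays (-0.44), and lay between -0.31 and -0.17 with 1 array left out. At pseudocount 64 it was -0.13, near the edge of that spread, so its size depends on how low signals are handled. The count over all probe sets, 4, was 7 at pseudocount 64, 9 with array weights, 10 within the 7-decimal arrays, 0 within the 9-decimal arrays (186 at an unadjusted p under 0.05), 0 with the myeloid covariate (633) and 4 to 8 with 1 array left out, 7 without knockout 2 or knockout 3 and 8 without knockout 4. With the replicate block it was 1, against 4 for the same 8 arrays without it. The deviations of same-numbered arrays from their group means had correlations of -0.05 to 0.11. Knockout 1 and wild type 1 were each other's closest match, at 0.11. With so few arrays this does not settle whether the numbers pair the mice. Of the 18 probe sets with full statistics 11 kept their sign in every alternative. Ccl2, Ccl7, Cxcl13, Ccl22 and Xcl1 are not among these 18. Signs turned for Ccl8 with the myeloid covariate (0.22), Cxcl14 within the 9-decimal arrays (0.45) and without knockout 1 or wild type 4 (-0.27 to 0.053 over all arrays left out), and Ccl1 within the 7-decimal arrays (0.088) and without knockout 4 (-0.43 to 0.029). They also turned for Cx3cr1 within the 7-decimal arrays (0.17) and without knockout 4 (-0.33 to 0.0056), Xcr1 with the hair follicle (-0.023) and myeloid (-0.56) covariates and without wild type 1 (-0.020 to 0.46), and Cxcl12, second probe set, with the myeloid covariate (-0.17) and without knockout 1 or wild type 1 (-0.040 to 0.20). Ackr3 turned within the 9-decimal arrays (0.17), with the hair follicle (0.16) and myeloid (0.78) covariates and without knockout 1, knockout 2 or wild type 2 (-0.15 to 0.12). Outside the 18, signs turned for Ccl2 with the hair follicle (0.072) and myeloid (1.13) covariates and for Ccl7 with the decimals block (-0.39). Those of Cxcl13 within the 9-decimal arrays (0.37) and Ccl22 within the 7-decimal arrays (0.19) turned too. With 1 array left out Ccl8 lay between -0.71 and -0.28, Ccr2 between -0.42 and -0.23 (without wild type 3), Ackr2 between -0.52 and -0.24 (without wild type 4) and the first Cxcl12 probe set between -0.43 (without wild type 2) and -0.11 (without wild type 3). The causes were not tested. MAS5 signals below the filter limit every statement on the dim members.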
